A study of Mus musculus with 6 samples.

Results

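The 33 genes of pyruvate dehydrogenase and the tricarboxylic acid (TCA) cycle were followed in splenic CD8+ T cells. They were chosen by symbol, as enzymes and regulators of the pathway and with earlier results of these data known, and all 33 were found among the 28773 gene IDs of the series. Bulk RNA-seq was performed on 6 samples from mouse spleens taken on day 35, in 2 groups of 3. Mice of both groups carried a tumor that was treated by microwave ablation (MWA), and received either PBS as vehicle (MWA+PBS, replicates 1 to 3) or 2-deoxy-D-glucose, a glucose analogue that interferes with glycolysis (MWA+2DG, replicates 4 to 6). The question was how 2DG given after ablation altered the metabolism of these cells. The mice of the study were female. The labels do not give the strain, age or tumor line of these libraries, nor whether a library came from 1 mouse or from a pool, so p-values measure only the spread between these samples. CD8+ T cells were enriched from whole spleen suspensions with a cell isolation kit, and the libraries hold whatever other cells passed through it.

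Pyruvate made by glycolysis enters mitochondria and is turned into acetyl-CoA by the pyruvate dehydrogenase complex. Pyruvate dehydrogenase kinases switch the complex off by phosphorylating its catalytic subunit, and phosphatases switch it on again. The TCA cycle then oxidises acetyl-CoA, feeds electrons to the respiratory chain and gives citrate, 2-oxoglutarate and malate to biosynthesis. In T cells, effector cells are known for fast glycolysis, and memory cells for a greater use of mitochondrial oxidation.

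Expression levels are FPKM, which divides fragments by transcript length and library total, a per-length scale on which genes can be compared. Differences are log2 fold changes of FPKM + 1, MWA+2DG minus MWA+PBS, with their standard error (SE). They come from limma fitted to the 12444 genes whose mean FPKM was 1 or more, and a gene was called at a Benjamini-Hochberg adjusted p under 0.05. Of the 33 members, 32 passed that filter. In all, 8 were called, which is 25% of the 32 against 39.4% of all genes tested. In MWA+2DG, 3 members rose (all genes: 22.3%), namely the kinase Pdk1, the phosphatase Pdp1 and the phosphatase regulator Pdpr. Another 5 fell (all genes: 17.1%), namely Idh1, Idh2, Aco1, Suclg2 and Mdh2. The groups did not overlap for 11 of the 32 members (all genes: 52.1%). The median difference of the members was -0.06, against 0.05 over all genes tested. The members held between 0.181% and 0.195% of the FPKM of each sample.

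The 250 bases before the transcription start are shown for the 2 members that rose most and the 2 that fell most, the genes on which the results turn, as given by RefSeq on GRCm38.p6. They lie at chr2:71872974-71873223 (plus strand) for Pdk1, chr8:111094495-111094744 (plus strand) for Pdpr, chr1:65186480-65186729 (minus strand) for Idh1 and chr7:80115351-80115600 (minus strand) for Idh2. Each is written 5′ to 3′, and capitals mark 3 motifs on either strand. They are the GC box, which reads GGGCGG, the box that reads CCAAT, and the core of the hypoxia response element, which reads ACGTG.
Pdk1: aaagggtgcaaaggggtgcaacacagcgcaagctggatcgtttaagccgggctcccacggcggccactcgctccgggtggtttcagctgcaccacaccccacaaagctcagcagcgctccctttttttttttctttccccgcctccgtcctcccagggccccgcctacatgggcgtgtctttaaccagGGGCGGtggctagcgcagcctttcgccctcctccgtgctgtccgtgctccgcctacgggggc
Pdpr: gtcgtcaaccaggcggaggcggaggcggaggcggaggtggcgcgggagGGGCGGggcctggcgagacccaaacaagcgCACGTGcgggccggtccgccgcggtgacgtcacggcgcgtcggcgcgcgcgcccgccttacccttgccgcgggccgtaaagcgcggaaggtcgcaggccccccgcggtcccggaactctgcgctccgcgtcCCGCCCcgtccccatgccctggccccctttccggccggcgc
Idh1: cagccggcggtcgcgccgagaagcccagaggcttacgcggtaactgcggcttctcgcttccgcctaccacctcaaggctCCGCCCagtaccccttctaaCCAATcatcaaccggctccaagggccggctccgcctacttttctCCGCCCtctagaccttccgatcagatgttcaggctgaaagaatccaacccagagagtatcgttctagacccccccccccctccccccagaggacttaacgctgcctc
Idh2: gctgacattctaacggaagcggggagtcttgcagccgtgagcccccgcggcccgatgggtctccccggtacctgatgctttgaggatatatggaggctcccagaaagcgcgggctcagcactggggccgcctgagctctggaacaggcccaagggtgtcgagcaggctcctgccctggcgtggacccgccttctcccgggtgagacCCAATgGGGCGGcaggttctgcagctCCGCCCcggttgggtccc
All 4 promoters held a GC box, and both Idh promoters held a CCAAT box. Only the Pdpr promoter held the hypoxia response core, at a single palindromic CACGTG that reads as ACGTG on both strands. RefSeq promoters were matched for 29 of the 33 members, all but Idh3a, Pdp1, Sdhc and Me2. GC boxes were found in 20 of the 29 (69%) and in 33% of all 27025 promoters. CCAAT boxes were found in 16 (55.2%, all promoters: 34.5%) and the hypoxia response core in 11 (37.9%, all promoters: 16.5%). The ETS motif CCGGAAG was in 2 (6.9%, all promoters: 7.07%), the NRF1 motif (2 GCGC blocks joined by A and any base) in 3 (10.3%, all promoters: 3.87%), and the AAGGTCA site of estrogen-related receptors in 0 (all promoters: 4.04%). The median GC content of the member promoters was 61.6%, against 52.0% of all promoters. These are matches of letters and do not show binding. The 4 promoters and the 6 motifs were chosen after the expression values were seen.

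The members differed widely in level. The highest mean over the 6 samples was that of Sdha, the flavoprotein of succinate dehydrogenase, at 49.4 FPKM. It was followed by Acly (47.6 FPKM), Ogdh (44.6 FPKM), Mdh1 (41 FPKM) and Sdhd (35 FPKM). These neighbours overlapped each other between samples. The lowest were Pcx (0.625 FPKM), Pdp1 (2.25 FPKM), Pdk2 (3.19 FPKM) and Pdhx (3.43 FPKM). Subunits of a complex were unequal in level, and the log2 ratio of Sdhb to Sdha lay between -1.93 and -1.75 in the 6 samples.

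**Figure D1:**
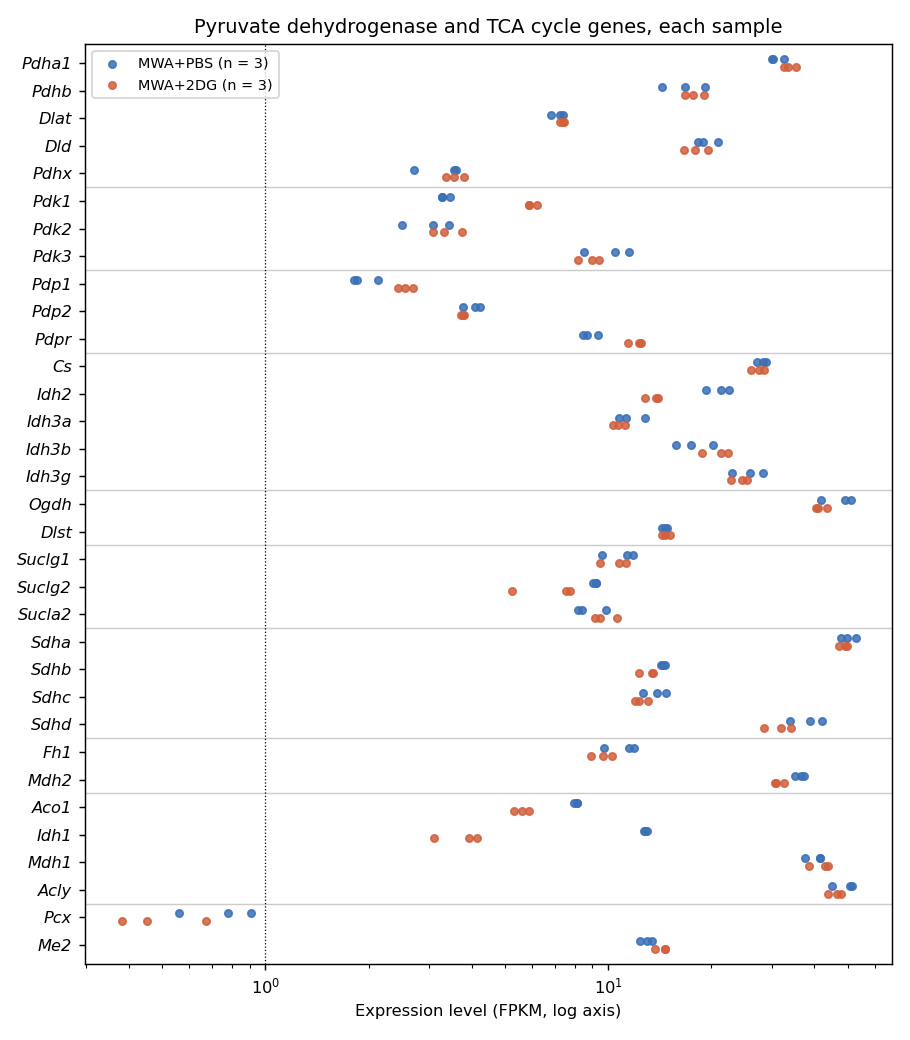
FPKM of each of the 33 members on a log axis, with 3 points for MWA+PBS and 3 for MWA+2DG and grey lines between the roles; the dotted line marks 1 FPKM. Idh1 and Pdk1 show the widest gaps between the groups, Pcx lies below 1 FPKM in every sample, and most other members overlap.

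The 5 core subunits of pyruvate dehydrogenase gave 0 calls by limma (all genes: 39.4%), with 0 of 5 at an unadjusted p under 0.05 as well. Pdha1, the catalytic subunit that the kinases phosphorylate, was 30.36, 32.53 and 30.05 FPKM in MWA+PBS, against 33.50, 32.54 and 35.39 FPKM in MWA+2DG. The groups did not overlap, though the highest MWA+PBS sample and the lowest MWA+2DG sample were almost level. The difference was 0.12 ± 0.06 (SE), adjusted p = 0.129, with a 95% interval from -0.01 to 0.26. With sample weights (limma's arrayWeights) Pdha1 was called higher (0.15, adjusted p = 0.0281), and with scaling to T lineage markers it was called lower (-0.34, adjusted p = 0.00093). Over the alternatives the adjusted p ranged from 0.00093 to 0.35. Pdhb, its partner subunit, was 16.8 ± 2.42 FPKM (SD, n = 3; 14.36 to 19.19) in MWA+PBS and 17.9 ± 1.16 FPKM (16.80 to 19.10) in MWA+2DG. Dlat, the acetyltransferase that forms the core of the complex, was 7.15 ± 0.295 FPKM (6.82 to 7.38) and 7.34 ± 0.106 FPKM (7.22 to 7.42). Dld, the dihydrolipoamide dehydrogenase shared with the 2-oxoglutarate complex, was 19.4 ± 1.42 FPKM (18.25 to 21.00) and 18.1 ± 1.46 FPKM (16.69 to 19.61). Pdhx, which ties Dld to the core, was 3.29 ± 0.5 FPKM (2.71 to 3.60) and 3.58 ± 0.221 FPKM (3.37 to 3.81). The last 4 subunits overlapped between the groups, with differences from -0.10 to 0.10. Summed, the 5 subunits gave 77.6 ± 5.2 FPKM in MWA+PBS, against 80.7 ± 3.87 FPKM in MWA+2DG.

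Among the kinases, Pdk1 rose and the other two were not called. Pdk1 (ENSMUSG00000006494), the isoform known as a target of hypoxia signalling, was 3.27, 3.46 and 3.27 FPKM in MWA+PBS, against 6.19, 5.87 and 5.87 FPKM in MWA+2DG. Each MWA+2DG sample stood well above each MWA+PBS sample, 1.79-fold on average, and the difference was 0.69 ± 0.06 (SE), adjusted p = 0.000155. Scaled to the T lineage markers, the Pdk1 difference was smaller, at 0.29 (adjusted p = 0.00477). Pdk2, the broadly expressed isoform, was 3.43, 2.50 and 3.08 FPKM and then 3.08, 3.31 and 3.75 FPKM, with overlapping groups and a difference of 0.13 ± 0.11 (adjusted p = 0.362). Pdk3, the most abundant kinase here, was 11.53, 10.47 and 8.53 FPKM and then 9.38, 8.97 and 8.18 FPKM. Its groups overlapped through the low MWA+PBS replicate 3, and the difference was -0.18 ± 0.11 (adjusted p = 0.226). Without that replicate it was -0.29 and was called (adjusted p = 0.038, range over the alternatives 0.000775 to 0.558). Pdk4, which is not a member, averaged 0.168 FPKM and was not tested.

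The make-up of the kinase pool thus differed while its sum did not separate the groups. The 3 kinases summed to 18.2, 16.4 and 14.9 FPKM in MWA+PBS, against 18.6, 18.1 and 17.8 FPKM in MWA+2DG. Pdk1 held 17.9%, 21.1% and 22% of that sum in MWA+PBS and 33.2%, 32.3% and 33% in MWA+2DG. Pdk3 held 63.2%, 63.7% and 57.3%, and then 50.3%, 49.4% and 46%. Neither share overlapped between the groups.

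On the side of the phosphatases, 2 of 3 members rose (66.7%, all genes: 22.3%). Pdpr (ENSMUSG00000033624), the regulatory subunit of the phosphatase, was 8.68, 8.43 and 9.35 FPKM in MWA+PBS, against 12.52, 12.28 and 11.45 FPKM in MWA+2DG, without overlap. The difference was 0.41 ± 0.06 (SE), adjusted p = 0.00192. An antisense gene, 9430091E24Rik, shares 169 exon bases with Pdpr on the opposite strand and averaged 3.04 FPKM (difference 0.18, adjusted p = 0.2). The use of strand in counting is unknown, so reads of the shared bases cannot be assigned. Pdp1 (ENSMUSG00000049225), a catalytic phosphatase subunit, was 1.85, 2.13 and 1.81 FPKM and then 2.43, 2.70 and 2.56 FPKM. These low values did not overlap, and the difference was 0.28 ± 0.08 (SE), adjusted p = 0.0309. The Pdp1 call was lost when any sample other than MWA+PBS replicate 2 was left out, with adjusted p from 0.0586 to 0.0958 and differences from 0.25 to 0.31. Pdp2, the second catalytic subunit, was 3.76, 4.08 and 4.23 FPKM and then 3.76, 3.72 and 3.80 FPKM, with a difference of -0.08 ± 0.07 (adjusted p = 0.405). The 3 genes summed to 14.3, 14.6 and 15.4 FPKM in MWA+PBS, against 18.7, 18.7 and 17.8 FPKM in MWA+2DG. The regulatory subunit Pdpr held most of that sum, at 60.7%, 57.6% and 60.8%, and then 66.9%, 65.7% and 64.3%. The higher sum therefore mainly follows Pdpr and is not a measure of the catalytic subunits, of which Pdp1 rose and Pdp2 did not. The rises of Pdpr and Pdp1 are relative to the library total, and neither gene was called when scaled to the T lineage markers. Pdpr was then at -0.02 (adjusted p = 0.792, range over the alternatives 0.000567 to 0.792) and Pdp1 at -0.05 (adjusted p = 0.647, range 0.00862 to 0.647).

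**Figure D2:**
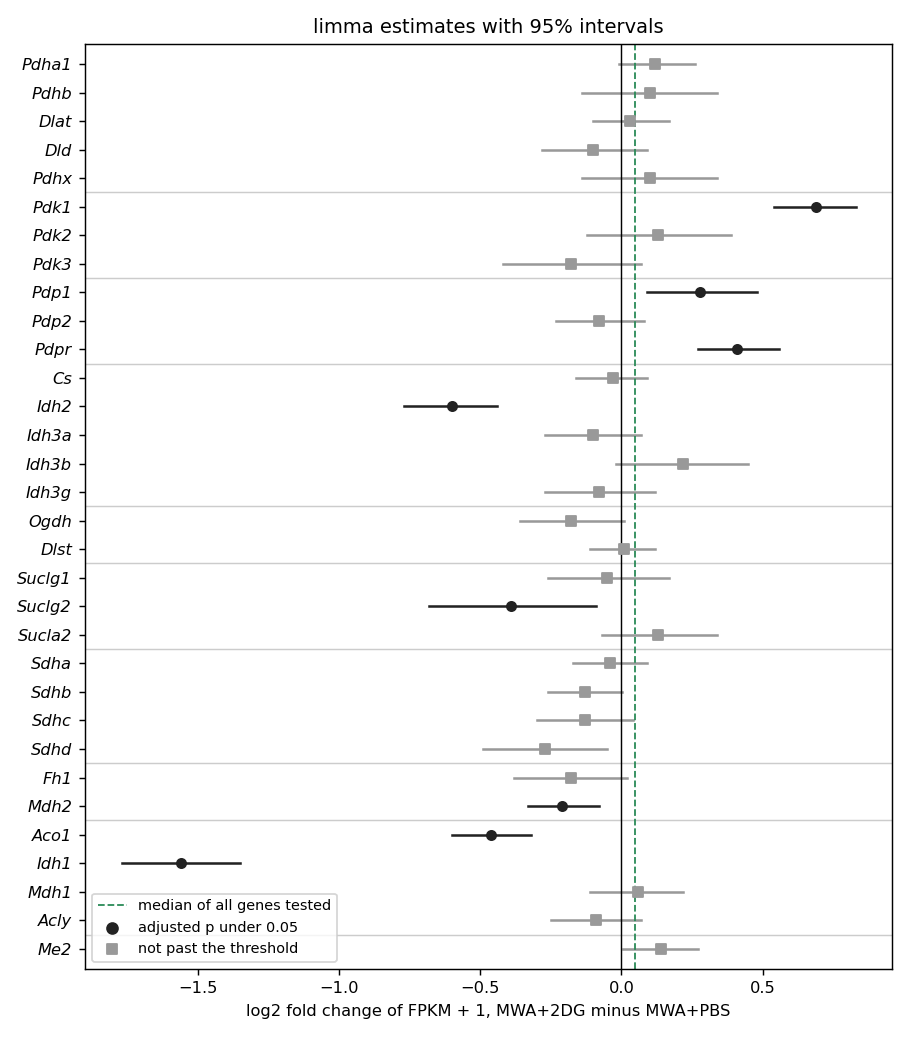
Log2 fold change of FPKM + 1 (MWA+2DG minus MWA+PBS) of the 32 tested members with 95% intervals; black circles passed an adjusted p under 0.05, grey squares did not, and the dashed line is the median of all genes tested (0.05). Idh1 lies at -1.56 and Pdk1 at 0.69, while all 24 uncalled members lie between -0.27 and 0.22.

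In the citrate to 2-oxoglutarate segment of the mitochondrial cycle, 1 of 5 members fell (20%, all genes: 17.1%). Cs, the citrate synthase that opens the cycle, was 27.20, 28.88 and 28.32 FPKM in MWA+PBS, against 27.59, 26.20 and 28.60 FPKM in MWA+2DG. The groups overlapped closely, and the difference was -0.03 ± 0.05 (SE, 95% interval -0.16 to 0.09, adjusted p = 0.656). Idh3a, the catalytic subunit of the NAD-dependent isocitrate dehydrogenase of the cycle, was 11.28, 12.80 and 10.77 FPKM and then 10.33, 10.70 and 11.22 FPKM, again overlapping (difference -0.10 ± 0.07, adjusted p = 0.32). Its partner subunit Idh3b was 17.8 ± 2.24 FPKM (15.80 to 20.24) and 20.8 ± 1.84 FPKM (18.78 to 22.35), a difference of 0.22 ± 0.10 (adjusted p = 0.127). Without MWA+PBS replicate 2, Idh3b was called higher (0.31, adjusted p = 0.0319), and with T lineage scaling it was called lower (-0.24, adjusted p = 0.0322). Over the alternatives the adjusted p ranged from 0.0206 to 0.325. The other partner, Idh3g, was 25.8 ± 2.74 FPKM (22.93 to 28.40) and 24.3 ± 1.3 FPKM (22.85 to 25.41), a difference of -0.08 ± 0.08.

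The called member of that segment was Idh2 (ENSMUSG00000030541), the mitochondrial isocitrate dehydrogenase that uses NADP. It was 22.59, 21.40 and 19.25 FPKM in MWA+PBS, against 13.76, 12.84 and 13.95 FPKM in MWA+2DG. All 3 MWA+2DG samples lay below all 3 MWA+PBS samples, 1.56-fold lower on average (-0.60 ± 0.07, adjusted p = 0.000536).

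The largest change of any member was that of a cytosolic enzyme. Idh1 (ENSMUSG00000025950), the cytosolic and peroxisomal isocitrate dehydrogenase that makes NADPH, was 12.82, 12.96 and 12.70 FPKM in MWA+PBS, against 3.11, 4.14 and 3.92 FPKM in MWA+2DG. The MWA+PBS samples were nearly level and the groups were far apart, 3.44-fold lower on average in MWA+2DG (-1.56 ± 0.09, adjusted p = 1.59e-05). Aco1 (ENSMUSG00000028405), the cytosolic aconitase that also serves as an iron regulatory protein, was 8.14, 7.94 and 8.14 FPKM and then 5.33, 5.60 and 5.86 FPKM. It did not overlap either and was 1.44-fold lower (-0.46 ± 0.06, adjusted p = 0.000821). The other 2 cytosolic members were not called. Mdh1, the malate dehydrogenase of the malate-aspartate shuttle, was 40.2 ± 2.22 FPKM (37.63 to 41.49) and 41.8 ± 2.86 FPKM (38.56 to 43.90), a difference of 0.06 ± 0.07. Acly, which cleaves exported citrate to acetyl-CoA for lipid synthesis and histone acetylation, was 49.2 ± 3.59 FPKM (45.06 to 51.64) and 46.1 ± 2.03 FPKM (43.88 to 47.86), a difference of -0.09 ± 0.07.

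Both NADP-dependent isocitrate dehydrogenases thus fell, and they fell unequally. Their sum was 35.4, 34.4 and 31.9 FPKM in MWA+PBS, against 16.9, 17 and 17.9 FPKM in MWA+2DG, 1.97-fold lower on average. Idh1 held 37.9 ± 1.78% of that sum in MWA+PBS and 21.6 ± 2.99% in MWA+2DG.

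Of the enzymes from 2-oxoglutarate to oxaloacetate, Suclg2 and Mdh2 fell (all genes: 17.1%) and the other 9 were not called. Ogdh, the rate-setting subunit of the 2-oxoglutarate dehydrogenase complex, was 49.00, 41.95 and 51.34 FPKM in MWA+PBS, against 41.13, 43.44 and 40.54 FPKM in MWA+2DG. The groups overlapped through MWA+PBS replicate 2, and the difference was -0.18 ± 0.08 (SE, adjusted p = 0.118). Without that replicate it was -0.26 and was called (adjusted p = 0.0101, range over the alternatives 0.000645 to 0.303). Dlst, the succinyltransferase core of the same complex, was 14.7 ± 0.246 FPKM (14.41 to 14.90) and 14.7 ± 0.397 FPKM (14.39 to 15.17), with a difference of 0.01 and a 95% interval from -0.11 to 0.12.

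Succinyl-CoA ligase is built from the common subunit Suclg1 and either of 2 beta subunits, Suclg2 for the GDP-forming enzyme and Sucla2 for the ADP-forming enzyme. Suclg1 was 10.9 ± 1.15 FPKM (9.63 to 11.81) in MWA+PBS and 10.5 ± 0.926 FPKM (9.49 to 11.29) in MWA+2DG, a difference of -0.05 ± 0.09. Suclg2 (ENSMUSG00000061838) was 9.20, 9.22 and 9.02 FPKM and then 7.72, 5.26 and 7.56 FPKM. All 3 MWA+2DG samples were lower, most of all replicate 5 (-0.39 ± 0.13, adjusted p = 0.0427). The Suclg2 call was lost without any 1 of the MWA+PBS replicates (adjusted p 0.101 without replicate 1, 0.0857 without replicate 2 and 0.085 without replicate 3, range over the alternatives 0.000389 to 0.102). Without MWA+2DG replicate 5 the difference was -0.23. A transcript with 98.9% identity to Suclg2 over 1302 bases, Gm15163, was 4.23, 4.25 and 3.22 FPKM and then 3.10, 4.39 and 3.06 FPKM. It was highest in MWA+2DG replicate 5, where Suclg2 was lowest, so the split of reads between the pair is uncertain. Their sum was 13.4, 13.5 and 12.2 FPKM in MWA+PBS, against 10.8, 9.65 and 10.6 FPKM in MWA+2DG, without overlap. Sucla2 was 8.8 ± 0.923 FPKM (8.17 to 9.86) and 9.74 ± 0.758 FPKM (9.16 to 10.60), a difference of 0.13 ± 0.09.

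The 4 subunits of succinate dehydrogenase, complex II of the respiratory chain, gave 0 calls by limma (all genes: 39.4%), with 1 of 4 at an unadjusted p under 0.05. Sdha was 50.2 ± 2.51 FPKM (47.86 to 52.84) in MWA+PBS and 48.7 ± 1.38 FPKM (47.14 to 49.74) in MWA+2DG, a difference of -0.04 ± 0.06. The iron-sulfur subunit Sdhb was 14.5 ± 0.206 FPKM (14.26 to 14.67) and 13.1 ± 0.686 FPKM (12.33 to 13.57), without overlap, a difference of -0.13 ± 0.06 (adjusted p = 0.108). The membrane anchor Sdhc was 13.8 ± 1.09 FPKM (12.63 to 14.81) and 12.5 ± 0.582 FPKM (11.99 to 13.12), a difference of -0.13 ± 0.07. The other anchor, Sdhd, was 38.4 ± 4.18 FPKM (33.94 to 42.25) and 31.6 ± 2.77 FPKM (28.60 to 34.09), a difference of -0.27 ± 0.10 (adjusted p = 0.0554). With median ratio scaling both Sdhb (-0.18, adjusted p = 0.0335) and Sdhd (-0.32, adjusted p = 0.02) were called. Sdhd was called lower under 6 of 15 alternatives, among them quantile normalization (adjusted p = 0.0323) and arrayWeights (adjusted p = 0.026), and Sdhb under 2 of 15. Over the alternatives the adjusted p ranged from 7.02e-05 to 0.271 for Sdhb and from 9.98e-05 to 0.154 for Sdhd. Under the rule of the study's methods (P under 0.05 and a difference beyond 0.25) Sdhd counted as lower and Mdh2 did not. That rule also gave 8 members (all genes: 38.2%), 3 higher and 5 lower.

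Fumarase and the mitochondrial malate dehydrogenase close the cycle. Fh1 was 11.1 ± 1.14 FPKM (9.76 to 11.91) in MWA+PBS and 9.61 ± 0.681 FPKM (8.91 to 10.27) in MWA+2DG, a difference of -0.18 ± 0.09 (adjusted p = 0.136). Without MWA+PBS replicate 3, Fh1 was called (-0.26, adjusted p = 0.041, range over the alternatives 0.000171 to 0.351). Mdh2 (ENSMUSG00000019179) was 36.48, 35.10 and 37.44 FPKM and then 32.57, 30.66 and 30.89 FPKM. Its groups did not overlap and the fall was small, 1.16-fold (-0.21 ± 0.05, adjusted p = 0.0173). The Mdh2 call was lost without MWA+PBS replicate 1 or 3 or without MWA+2DG replicate 5 or 6, with adjusted p from 0.0548 to 0.0672.

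Members that feed carbon into or out of the cycle at pyruvate were not called. Me2, the mitochondrial malic enzyme, was 12.9 ± 0.516 FPKM (12.41 to 13.44) in MWA+PBS and 14.4 ± 0.557 FPKM (13.71 to 14.68) in MWA+2DG, without overlap (0.14 ± 0.06, adjusted p = 0.0944). Pcx, the pyruvate carboxylase that refills oxaloacetate, was 0.91, 0.56 and 0.78 FPKM and then 0.45, 0.38 and 0.67 FPKM. It fell under the filter and was not tested.

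For the 24 uncalled members, the differences lay between -0.27 and 0.22, 10 above 0 and 14 below. Their 95% intervals all lay between -0.49 and 0.45, within 0.5 of 0 on the log2 scale. That holds for values relative to the library total. Scaled to the T lineage markers, the same 24 members lay between -0.74 and -0.23. All but Pdhx (adjusted p = 0.0584) and Pdk2 (adjusted p = 0.0974) were then called lower by limma, 11 of them with a difference beyond -0.5. Within the groups, MWA+PBS replicate 3 was the lowest of its group for 59.4% of the tested members (all genes: 43.2%), and MWA+2DG replicate 5 was the lowest of its group for 59.4% (all genes: 41.5%).

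A ratio of 2 genes within a sample does not depend on how the library was scaled. For 10 pairs, log2 ratios of FPKM were compared by a two-sided exact permutation test over the 6 samples, which cannot go below 0.1. For 7 pairs the groups did not overlap, and each had exact p = 0.1 (0.143 adjusted over the 10 pairs). The Idh1:Idh2 ratio went from -0.71 ± 0.11 (SD, n = 3) in MWA+PBS to -1.87 ± 0.26 in MWA+2DG. The Pdk1:Pdk3 ratio went from -1.60 ± 0.22 to -0.56 ± 0.07, and the Pdk1:Pdk2 ratio from 0.16 ± 0.28 to 0.83 ± 0.18. Pdk1 thus gained on both other kinases. Between the phosphatase subunit Pdp1 and the kinase Pdk1, the Pdp1:Pdk1 ratio went from -0.79 ± 0.08 to -1.22 ± 0.12. This pair does not stand for the balance of phosphatases and kinases. Pdp1 held only 11.8% to 14.5% of the phosphatase sum over all samples, and Pdk1 17.9% to 33.2% of the kinase sum. On average the phosphatase sum was 1.25-fold higher with 2DG and the kinase sum 1.1-fold higher, the latter with overlapping groups. A ratio of the sums was not tested. Suclg2:Sucla2 went from 0.06 ± 0.14 to -0.53 ± 0.30, Idh3a:Idh2 from -0.86 ± 0.13 to -0.33 ± 0.08, and Mdh1:Mdh2 from 0.14 ± 0.12 to 0.41 ± 0.07. Subunits of a common complex overlapped between the groups, with a difference of -0.10 for Sdhb:Sdha (exact p = 0.2, 0.222 adjusted) and of -0.14 for Dld:Dlat (exact p = 0.3, 0.3 adjusted). Pcx:Pdha1 also overlapped, with a difference of -0.72 (exact p = 0.2, 0.222 adjusted).

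**Figure D3:**
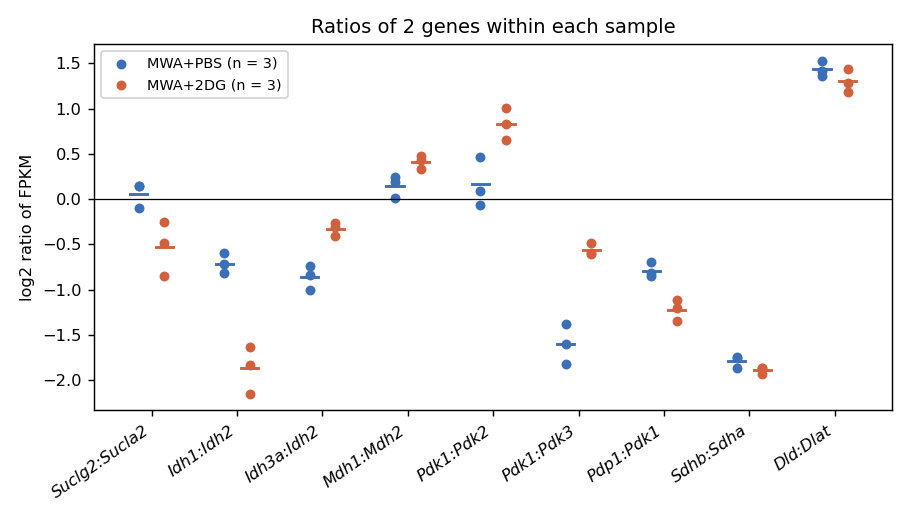
Log2 ratio of the FPKM of 2 members in each sample, with bars at the group means (n = 3 each); Pcx:Pdha1, which lies near -6, is not drawn. The Idh1:Idh2 ratio is lower by 1.16 and the Pdk1:Pdk3 ratio higher by 1.04 in MWA+2DG, whereas Sdhb:Sdha and Dld:Dlat overlap.

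Neighbouring genes of the pathway were read from further lists. Of 51 genes, 43 were tested and 20 were called (46.5%, all genes: 39.4%), 10 higher and 10 lower, with a median difference of -0.03 (all genes: 0.05). Directions in the neighbours are relative to the library total. Scaling by the mean log2(FPKM + 1) of the T lineage markers lowers the median of all genes to -0.36. With it, 0 of the 10 higher genes were called higher and all 10 lower genes were called lower. Of the higher genes, 2 were called lower, Slc25a11 (-0.19, adjusted p = 0.0293) and Acss1 (-0.22, adjusted p = 0.0195). Among carriers and pyruvate entry, 4 of 7 were called (57.1%, all genes: 39.4%). Mpc1, a subunit of the mitochondrial pyruvate carrier, was 4.25 ± 0.58 and 6.12 ± 0.226 FPKM (0.44 ± 0.09, adjusted p = 0.00665), whereas its partner Mpc2 was 1.75 ± 0.0416 and 1.84 ± 0.0231 FPKM (0.05 ± 0.08, adjusted p = 0.642). The 2-oxoglutarate carrier Slc25a11 rose by 0.26 (-0.19 with T lineage scaling) and the aspartate-glutamate carrier Slc25a12 by 0.28 (-0.15 with T lineage scaling). The second aspartate-glutamate carrier, Slc25a13, fell from 2.14 ± 0.257 to 0.84 ± 0.0608 FPKM (-0.77 ± 0.10, adjusted p = 0.000798).

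Lipoic acid is the cofactor of the pyruvate and 2-oxoglutarate complexes. Lias, the lipoyl synthase, rose from 3.34 ± 0.225 to 4.67 ± 0.215 FPKM (0.39 ± 0.07, adjusted p = 0.00478), and the complex II assembly factor Sdhaf1 rose by 0.32 (adjusted p = 0.0492). These were 2 of 5 tested genes of lipoylation and complex II assembly (40%, all genes: 39.4%). Among the other cycle enzymes, 1 of 4 was called (25%, all genes: 39.4%). It was Pck2, the mitochondrial phosphoenolpyruvate carboxykinase, which fell from 2.07 ± 0.242 to 1.15 ± 0.0611 FPKM (-0.51).

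Of 10 genes through which glutamate, aspartate, lactate and propionate enter, 5 were called (50%, all genes: 39.4%), 4 of them lower (all genes: 17.1%). The aspartate transaminases Got1 and Got2 had differences of -0.26 and -0.19, the propionyl-CoA carboxylase subunit Pcca of -0.27, and the lactate dehydrogenase subunit Ldhb of -0.79 (5.5 ± 1.19 to 2.75 ± 0.519 FPKM). Ldha, the main lactate dehydrogenase subunit of these cells at 101.3 ± 6.08 and 92.7 ± 6.16 FPKM, was not called (-0.13 ± 0.07, adjusted p = 0.192).

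The branched-chain ketoacid dehydrogenase, a complex related to pyruvate dehydrogenase, had 2 of 5 genes called (40%, all genes: 39.4%). Its inhibitory kinase Bckdk rose by 0.36 and its subunit Bckdhb had a difference of -0.48. Of 4 genes that make or use acetyl-CoA, the mitochondrial synthetase Acss1 rose by 0.23 (-0.22 with T lineage scaling), and Acaca, the acetyl-CoA carboxylase of fatty acid synthesis, had a difference of -0.40. Among 8 tested regulators of mitochondrial biogenesis, Tfam, which packages and transcribes mitochondrial DNA, rose by 0.26 and Tfb2m, a mitochondrial transcription factor, by 0.27. The coactivator Ppargc1b fell from 7.22 ± 0.41 to 4.38 ± 0.244 FPKM (-0.61), and the transcription factor Nrf1 had a difference of -0.29.

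The libraries differed in markers of cell types other than T cells, and bulk RNA cannot tell a change within the T cells from a change in the mix of cells, nor fewer cells of a type from less RNA per cell. All 14 T lineage markers rose, and their summed level was 1612.6 to 1696.7 FPKM in MWA+PBS and 2284.0 to 2437.9 FPKM in MWA+2DG. Of 15 monocyte and macrophage markers, 14 fell and Itgam rose, with sums of 799.8 to 865.1 FPKM and 133.8 to 140.7 FPKM. All 9 tested erythroid markers fell (sums of 10 genes, 294.8 to 350.7 FPKM and 67.2 to 85.4 FPKM). Neutrophil markers rose in 10 of 11 (66.7 to 91 FPKM and 1577.5 to 1756.9 FPKM) and B cell markers in 8 of 8 (10.8 to 12.1 FPKM and 53.2 to 58.4 FPKM). Proliferation genes fell in 17 of 18 (287.1 to 304.0 FPKM and 195.9 to 204.4 FPKM). None of these markers was at 0 in any sample. Idh1, Idh2, Aco1, Suclg2 and Mdh2 fell together with the macrophage, erythroid and proliferation markers, and Pdk1, Pdp1 and Pdpr rose together with the T lineage, neutrophil and B cell markers. The part of these markers in the member results was not tested. No batch is named in the labels, and a batch that matched the treatment could not be separated from it: such a batch and 2DG cannot be told apart.

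**Figure D4:**
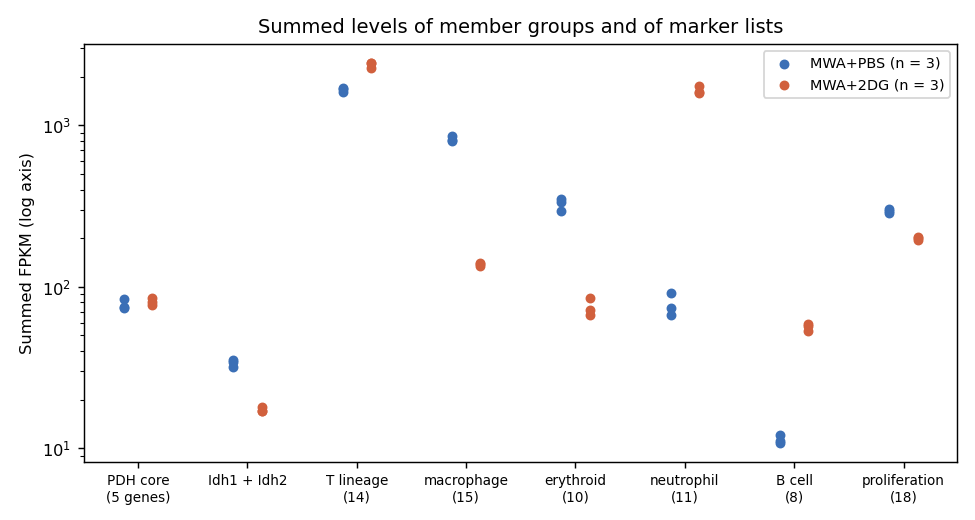
Summed FPKM on a log axis of the 5 pyruvate dehydrogenase subunits, of Idh1 and Idh2, and of marker lists (number of genes in brackets), for 3 MWA+PBS and 3 MWA+2DG samples. The pyruvate dehydrogenase sum overlaps between the groups, Idh1 and Idh2 are 1.97-fold lower, macrophage markers 6-fold lower and neutrophil markers 21.4-fold higher in MWA+2DG.

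Samples were also scaled by the mean log2(FPKM + 1) of the T lineage markers in place of the library total. The median of all genes tested then moved from 0.05 to -0.36 and that of the members from -0.06 to -0.51. On that scale Idh1 was at -1.97, Idh2 at -1.06 and Aco1 at -0.88, with adjusted p of 2.91e-06, 4.63e-06 and 2.66e-05. Pdk1 was still called higher, at 0.29 (adjusted p = 0.00477). The rises of Pdpr and Pdp1 were not seen on that scale. On that scale 27 of the 32 members were called lower, as were 65.3% of all genes tested.

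**Figure D5:**
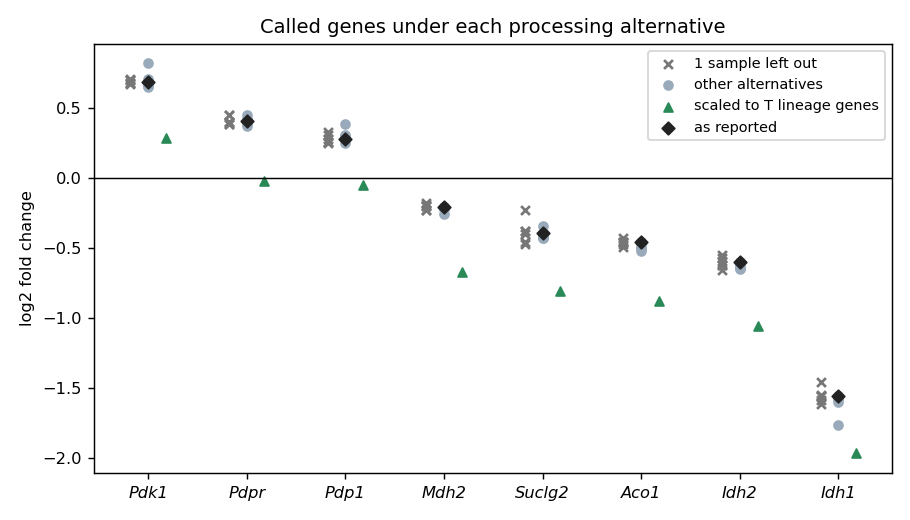
Log2 fold change of the 8 called members as reported (black diamonds), with 1 sample left out (crosses), under other alternatives (circles) and scaled to the T lineage markers (triangles). Signs hold for 6 members throughout, while Pdpr and Pdp1 lie at -0.02 and -0.05 under the T lineage scaling.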

How the data were processed

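RNA was sequenced from splenic CD8+ T cells of 6 samples, grouped by their labels into MWA+PBS (3) and MWA+2DG (3). Poly(A) libraries were strand-marked (dUTP) with molecular identifiers in the adapters. The study's methods name fastp for read quality, HISAT2 for mapping, and StringTie and ballgown for the FPKM values that the authors deposited. The submitters' processing notes list cutadapt 1.9, HISAT2 2.0.4, UMI-tools, StringTie 1.3.4d and build mm9. Not given in the sources used here are the annotation release and the use of strand in counting. The deposited FPKM values carry 2 decimals and are shares of a library, so that 1 abundant transcript can lower all others. Read counts are not part of them, depth is therefore unknown, and counting intervals cannot be given. Each sample had 22414 to 23340 genes above 0 and FPKM totals of 291803 to 313257.

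Symbols were found for 28689 of 28773 IDs, 84 had none, and Mmut was matched through a RefSeq synonym. Genes with a mean FPKM of at least 1 were tested on log2(FPKM + 1), a scale that compresses changes of low genes. The test was two-sided in limma 3.58.1 under R 4.3.3, by lmFit and a trended eBayes, over all 6 samples, no covariates, and Benjamini-Hochberg adjustment over all genes tested. Ratios were compared by exact permutation (scipy 1.17.1). Every member is named, with all sample values for called members, kinases, phosphatases, Pdha1, Cs, Idh3a and Ogdh, and called genes of the neighbouring lists are named, except where a result is not reported here. Near copies (BLAST 2.17.0, identity of at least 95% over at least 200 bases) and overlapping exons came from GENCODE M21. Promoters came from RefSeq (GRCm38.p6), another build than that of the files. Members and lists were chosen with earlier results of these data known. The copy check, summed levels and shares were added after the values were seen. The alternatives tried were a pseudocount of 0.1, no filter, a mean FPKM of at least 5, 4 other scalings, eBayes without a trend, arrayWeights, the study's rule and leaving out each sample.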

Additional observations from a re-analysis of the deposited data

How the results depend on the processing

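Counted over the alternatives that refit the data, Idh1, Idh2 and Aco1 were called under all 15, Pdk1 under all 14 it entered, Pdpr under 14 of 15, Mdh2 under 11 of 15, Suclg2 under 10 of 15 and Pdp1 under 7 of 14. The study's rule, which applies another threshold to the same fit, kept 7 of these 8 members and dropped Mdh2. Besides the leave-outs given with each gene, Suclg2 was lost with no filter on low values (adjusted p = 0.102) and with eBayes without a trend (0.0521), and Pdp1 with no filter (0.0731). The main counts of 3 higher and 5 lower became 1 higher at a mean FPKM of at least 5, where 27 members were tested and Pdk1 and Pdp1 were under the filter, 5 higher and 8 lower with arrayWeights (50.7% of all genes called), and 1 higher and 27 lower with T lineage scaling, where the member median was -0.51. Without 1 sample, the counts ranged from 2 to 4 higher and from 3 to 6 lower. T lineage scaling turned the share of all calls that were higher from 56.5% to 6.19%, and median ratio scaling to 48.6%. The 10 ratios kept their direction under a pseudocount of 1 and with each sample left out. Their exact test cannot go below 0.1 with 3 samples against 3, and with 3 against 2 it cannot pass the threshold either.

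T lineage scaling turned the sign of Pdha1 (-0.34), Pdhb (-0.36), Dlat (-0.39), Pdhx (-0.27), Pdk2 (-0.23), Pdp1 (-0.05), Pdpr (-0.02), Idh3b (-0.24), Dlst (-0.44), Sucla2 (-0.30), Mdh1 (-0.41) and Me2 (-0.31). Other reversals were of members near 0: Dlat at -1.2e-05 and Dlst at -0.01 with quantile normalization, Dlat at -0.01 and Dlst at -0.04 with median ratio scaling, and Cs at 0.004 with arrayWeights. With 1 sample left out, Pdhb ranged from -0.0042 to 0.19, Pdhx from -0.00057 to 0.15, Dlst from -0.01 to 0.02 and Suclg1 from -0.13 to 0.02. The cause was not tested. No paired analysis was possible because the groups share no replicate number (1 to 3 for MWA+PBS, 4 to 6 for MWA+2DG). The missing depth limits the low genes most, Pcx and Pdp1 among them.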
